A study of Homo sapiens with 6 samples.

Results

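The genes described here encode the core of the microRNA pathway: the 4 Argonaute genes AGO1, AGO2, AGO3 and AGO4, the 3 TNRC6 genes TNRC6A, TNRC6B and TNRC6C, and the processing genes DROSHA, DGCR8 and DICER1. They were chosen by gene symbol, and all 10 were found among the 58735 genes listed. RNA-seq was performed on HCT116 cells, an established human colorectal carcinoma line, with 3 control-transfected libraries (CTR) and 3 libraries of cells that received 50 nM miR-8485 mimics and were collected 48 h after transfection. The labels give the genotype of the controls as WT and that of the treated cells as miR-8485 mimics, and they describe the libraries as independent biological replicates. The sequence and the dose of the control transfection are not given in the sources used here, and the results hold for 1 cell line. The comparison of CTR with miR-8485 gives the expression of this machinery after a microRNA mimic was delivered.

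A microRNA is made from a longer nuclear transcript. DROSHA, a nuclease, and DGCR8, its RNA-binding partner, cut out a hairpin in the nucleus, and DICER1, a second nuclease, trims the hairpin to a short duplex in the cytoplasm. An Argonaute protein takes up 1 strand of the duplex and is guided by it to matching mRNAs, mainly through the seed, which is bases 2 to 8 of the strand. AGO2 is the Argonaute best known for cutting fully matched targets. The TNRC6 proteins, also known as GW182 proteins, bind Argonautes and recruit the enzymes that shorten the poly(A) tail and silence the mRNA. A mimic is a short synthetic duplex that enters at the Argonaute step and needs neither DROSHA nor DGCR8.

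The mimic and the places it could pair with in these mRNAs are shown first because the counts of such places are set beside the changes later. In the mimic, as printed in the study's methods, capitals mark the seed.
miR-8485 mimic: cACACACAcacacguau
The letters that pair with the whole seed read TGTGTGT in DNA. The next 5 windows of 30 bases, read from GENCODE release 44 transcripts on GRCh38, hold the longest run of such matches in the 3′ UTR of AGO3 and TNRC6B, which fell, of TNRC6C, which was not past the threshold, of DROSHA, which rose, and the first of the single matches of AGO1, which was not past the threshold. Capitals mark the matches.
AGO3: ggggagTGTGTGTGTGTGTatatgtatgag
TNRC6B: gcacaTGTGTGTGTGTGTggtccagtcact
TNRC6C: cagaagTGTGTGTGTGTGTgcatgtgtggc
DROSHA: ttttcTGTGTGTGTttgagatttgagaggg
AGO1: ttttcTGTGTGTtttacctttctactcccc
The AGO3 window lies on the plus strand at chr1:36061179-36061208, the TNRC6B window on the plus strand at chr22:40327226-40327255 and the TNRC6C window on the plus strand at chr17:78105630-78105659. The DROSHA window lies on the minus strand at chr5:31400665-31400694 and the AGO1 window on the plus strand at chr1:35925201-35925230.

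The deposited values were FPKM, that is fragments per kilobase of gene scaled to the total of the library, and the libraries had 17473874 to 18480047 fragments on listed genes. The 10 genes had 216 to 2650 fragments each per library. CTR replicate 1 stood somewhat apart from the other CTR libraries, with a chi-square per gene of 12.6 and 9.97 against them and 3.21 between them, where sampling noise alone gives about 1. Without it, AGO2, AGO3, TNRC6B and DROSHA kept their calls, with log2 fold changes of -0.86, -0.68, -0.65 and 0.30, and DICER1 did not. Of 7 markers of colorectal epithelium, 6 were expressed (EPCAM, CDH1, KRT8, KRT18, KRT19 and CDX2, at 15.5 FPKM or more), and VIL1 was at most 0.0639 FPKM. Their summed level was 2613 to 2838 FPKM in CTR and 1751 to 1838 FPKM in miR-8485. Most of this sum was KRT8, KRT18 and KRT19. Over all 6 libraries these ranged from 543 to 873, 286 to 609 and 747 to 1230 FPKM. EPCAM ranged only from 127 to 148 FPKM, CDH1 from 18.7 to 20.4 and CDX2 from 15.5 to 29.4. Of 11 markers of fibroblasts, leukocytes and endothelium, COL1A1 alone reached 1 FPKM, at 4.05 to 6.40, while DCN and CD3E were at 0 in every library. The summed level of the 4 fibroblast markers was 4.13 to 4.39 FPKM in CTR and 6.27 to 6.40 FPKM in miR-8485. Nearly all of it was COL1A1, since COL1A2 was at most 0.00497 FPKM and LUM at most 0.0735. The leukocyte and endothelial sums overlapped between the groups. The part of these differences in the results was not tested. In RNA from whole cultures, fewer cells that express a gene and less of its RNA per cell cannot be told apart.

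**Figure D1:**
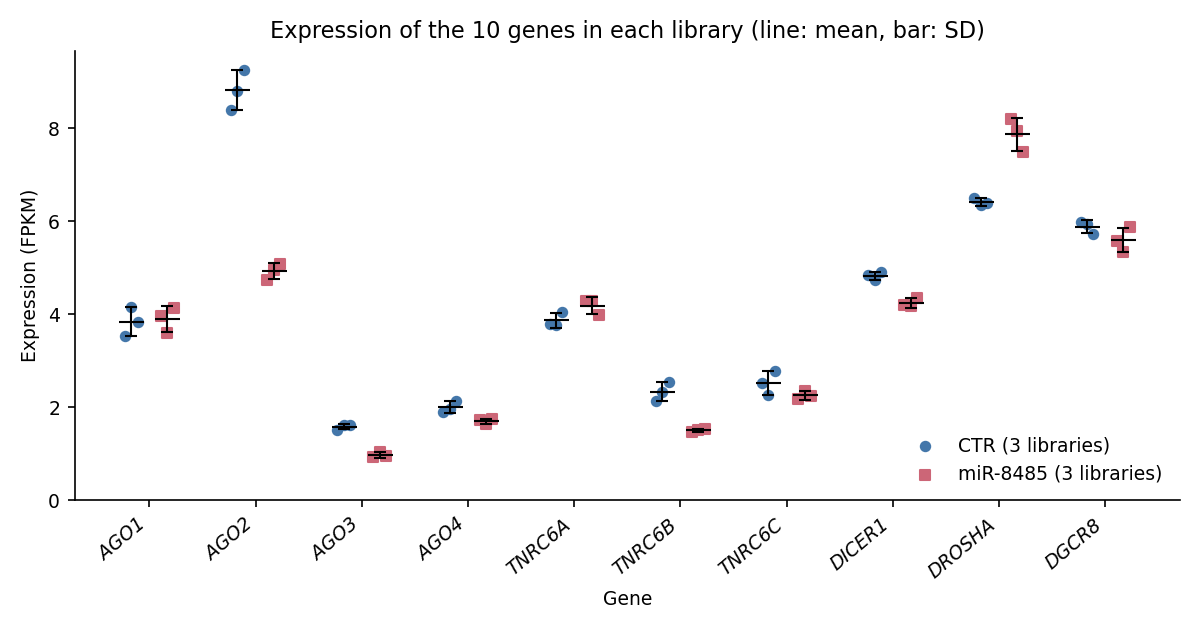
Expression in FPKM (vertical axis) of each of the 10 genes (horizontal axis) in the 3 CTR libraries (circles) and the 3 miR-8485 libraries (squares), with the mean as a horizontal line and the SD as a bar. AGO2 dropped from 8.81 to 4.92 FPKM, below DROSHA and DGCR8, and DROSHA rose from 6.41 to 7.87 FPKM.

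Of the 10 genes, AGO2, AGO3, TNRC6B and DICER1 were downregulated, DROSHA was upregulated and the other 5 were not past the threshold, in limma on log2(FPKM + 0.1) with Benjamini-Hochberg adjustment over the 12349 genes that averaged 1 FPKM or more. Across all tested genes, 30.5% were downregulated and 29.1% upregulated, 59.6% in all, so the number of these genes that changed was not above the background. The libraries of the 2 groups did not overlap for DROSHA, which was higher in miR-8485, and for AGO2, AGO3, AGO4, TNRC6B and DICER1, which were lower. Among all tested genes, 32.5% were higher and 34.0% lower in this sense, 66.5% in all. On the log2 scale, the 10 genes had a median change of -0.16 and all tested genes one of -0.0041. AGO2, AGO3 and TNRC6B passed the threshold with a log2 fold change of -0.5 or lower, as did 15.0% of the tested genes. With the trend of fold changes against gene length removed, AGO2 was at -0.67, while AGO3 at -0.48 and TNRC6B at -0.42 no longer reached -0.5. All 10 genes were higher in that setting than in the main fit, with DICER1 at -0.05 and TNRC6C at -0.02. The median of all tested genes was -0.0048 there, so the median of -0.16 of the 10 genes depended on this trend. FPKM depends on the total of each library, and rescaling to TPM moved the median of all tested genes to -0.12, with a like shift in each of the 10 genes.

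**Figure D2:**
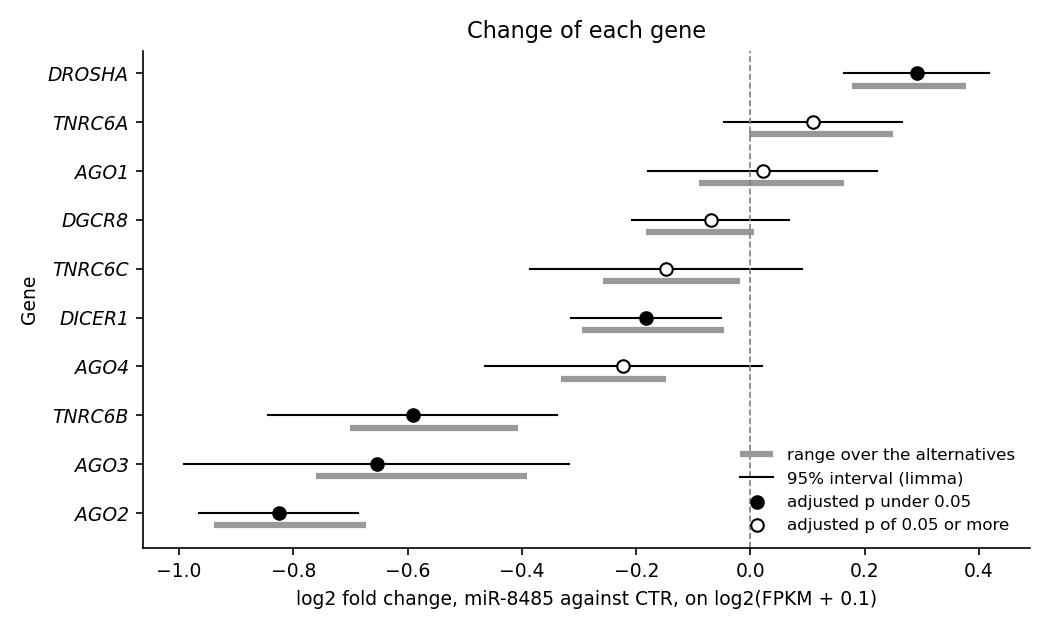
Log2 fold change of miR-8485 against CTR (horizontal axis) for each gene (vertical axis), with the 95% interval from limma as a thin line and the range over all alternative settings as a grey bar. Filled points had an adjusted p under 0.05. AGO2, AGO3 and TNRC6B lay below -0.5, and DROSHA lay at 0.29.

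AGO2 had the largest fall of the 10 genes. The gene lies on chromosome 8 of hg38, minus strand, from 140520156 to 140635619. Its level was 8.39, 8.80 and 9.25 FPKM in CTR and 4.74, 4.94 and 5.09 FPKM in miR-8485. Every miR-8485 library was far below every CTR library, and the mean went from 8.81 ± 0.429 to 4.92 ± 0.176 FPKM (SD, n = 3 each), a ratio of 0.559. On the log2 scale this was a change of -0.83 ± 0.06 (SE), with an adjusted p of 2.8e-05 in limma. It stayed between -0.86 and -0.79 with any library left out. Behind these values were 2395, 2519 and 2650 fragments in CTR and 1348, 1416 and 1535 in miR-8485.

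The other Argonaute genes lie together on the plus strand of chromosome 1, in the order AGO4 (35808172 to 35857890), AGO1 (35869808 to 35930528) and AGO3 (35930718 to 36072500), with 189 bases between AGO1 and AGO3. These neighbours did not move alike. AGO3 had 1.52, 1.62 and 1.62 FPKM in CTR and 0.929, 1.04 and 0.945 FPKM in miR-8485. The groups were clearly apart, with 579 to 620 fragments per CTR library and 353 to 398 per miR-8485 library. Its mean was below the filter of 1 FPKM in miR-8485 and above it in CTR, and it was also called with no filter (adjusted p = 0.0101 in limma). On the log2 scale AGO3 changed by -0.65 ± 0.14 (SE, limma adjusted p = 0.0058), and the ratio of the mean FPKM was 0.613. With a pseudocount of 1 in place of 0.1, which compresses low values, the log2 fold change was -0.39 (adjusted p = 0.0042).

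AGO1, the neighbour upstream of AGO3, had 3.53, 4.15 and 3.84 FPKM in CTR and 3.96, 3.60 and 4.13 FPKM in miR-8485. The groups overlapped fully, and the log2 fold change was 0.02 with a 95% interval of -0.18 to 0.22 (adjusted p = 0.84 in limma). After rescaling to TPM it was -0.09, so AGO1 has no stable direction in these data. AGO4 had 1.90, 1.97 and 2.14 FPKM in CTR and 1.72, 1.64 and 1.74 FPKM in miR-8485. All miR-8485 libraries were below all CTR libraries, but the difference was small and rested on 249 to 282 fragments per CTR library and 216 to 241 per miR-8485 library. Its log2 fold change was -0.22 with an interval of -0.47 to 0.02 (adjusted p = 0.101 in limma). AGO4 was past the threshold after rescaling to TPM (-0.33, adjusted p = 0.0306) and in limma without a variance trend (adjusted p = 0.0234).

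The share of each gene in the summed Argonaute mRNA was compared next. The summed FPKM of the 4 genes was 15.3, 16.5 and 16.9 in CTR and 11.3, 11.2 and 11.9 in miR-8485. AGO2 held 54.7%, 53.2% and 54.9% of this sum in CTR and 41.8%, 44.03% and 42.7% in miR-8485, a mean difference of -11.4 percentage points. The share of AGO1 was 23.6 ± 1.26% in CTR and 33.9 ± 1.57% in miR-8485 (SD, n = 3 each). AGO4 held 12.3 ± 0.405% and 14.8 ± 0.321%, and AGO3 held 9.77 ± 0.145% and 8.46 ± 0.704%, in the same order. The shares of a library add up to the whole, so they are not independent, and a share can rise without more mRNA. AGO1 itself changed by 0.02 and AGO4 by -0.22 on the log2 scale, neither past the threshold. None of the 4 shares overlapped between the groups, and each had an exact two-sided permutation p of 0.1, the smallest that 3 libraries against 3 allow (0.117 after adjustment over 7 shares). The mRNA of AGO2 was more than that of the other 3 genes together in CTR and less than that in miR-8485.

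**Figure D3:**
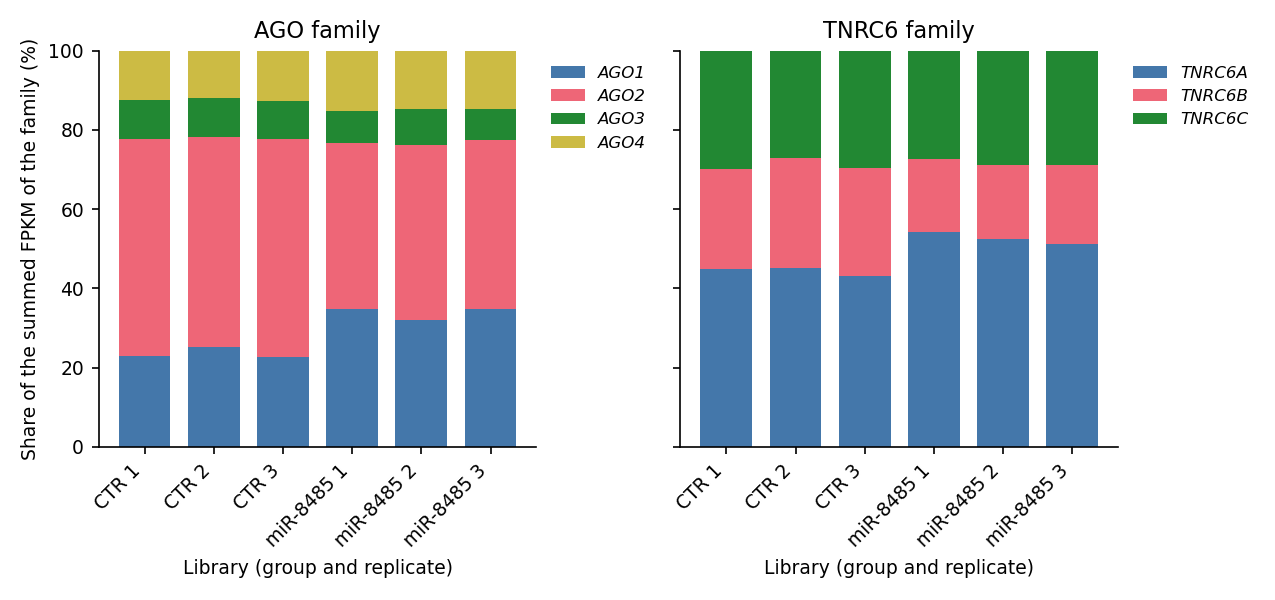
Share of the summed FPKM of the family in percent (vertical axis) held by each Argonaute gene (left) and each TNRC6 gene (right) in the 6 libraries (horizontal axis). The AGO2 share lay at 53.2% to 54.9% in CTR and 41.8% to 44.03% in miR-8485, and the TNRC6B share at 25.3% to 27.8% and 18.6% to 19.8%.

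Among the TNRC6 genes, TNRC6B was downregulated and its paralogs were not past the threshold. TNRC6B, on the plus strand of chromosome 22 (40044817 to 40335808), had 2.14, 2.32 and 2.54 FPKM in CTR and 1.47, 1.52 and 1.54 FPKM in miR-8485. The miR-8485 libraries were close to each other and all below CTR, with 529 to 586 fragments against 770 to 920. The change was -0.59 ± 0.11 on the log2 scale (SE, limma adjusted p = 0.0024), and it lay between -0.65 and -0.53 with any library left out.

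TNRC6A, on the plus strand of chromosome 16 (24610209 to 24827632), had 3.78, 3.77 and 4.05 FPKM in CTR and 4.30, 4.28 and 3.98 FPKM in miR-8485. Replicate 3 of miR-8485 lay within the CTR range, and the log2 fold change of 0.11 had an interval of -0.05 to 0.27 (adjusted p = 0.19 in limma). With the trend of fold changes against gene length removed, it was 0.25 (adjusted p = 0.0141), and after rescaling to TPM it was -0.0027. TNRC6C, on the plus strand of chromosome 17 (77959240 to 78108835), had 2.52, 2.26 and 2.77 FPKM in CTR and 2.17, 2.36 and 2.24 FPKM in miR-8485. The groups overlapped, and the log2 fold change was -0.15 with an interval of -0.39 to 0.09 (adjusted p = 0.245 in limma). It was -0.0770 without CTR replicate 3, -0.0176 with the gene length trend removed and -0.26 after rescaling to TPM, and was not past the threshold in any of these. The last 1438 bases of TNRC6C overlap TNRC6C-AS1 on the other strand, and whether the counting used strand is not given in the sources used here, so fragments from these bases are uncertain.

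The summed FPKM of the 3 TNRC6 genes was 8.44, 8.35 and 9.37 in CTR and 7.94, 8.16 and 7.76 in miR-8485. These ranges did not overlap, but they did with canonical transcript lengths in place of the gene lengths of the table (10.7 to 11.9 and 10.1 to 10.7). TNRC6B held 26.8 ± 1.29% of the sum in CTR and 19.0 ± 0.71% in miR-8485 (SD, n = 3 each), and TNRC6A held 44.4 ± 1.04% and 52.6 ± 1.42%. Both shares were apart between the groups, each with the smallest exact permutation p possible (0.1, two-sided). TNRC6C held 28.8 ± 1.55% and 28.4 ± 0.9%, with overlapping libraries (exact permutation p = 0.6). The level of a share depends on the gene length used. Per canonical length, TNRC6A averaged 5.89 of a summed 11.1 in CTR and 6.37 of 10.4 in miR-8485. The difference of its share between the groups was 8.08 percentage points there and 8.19 with the lengths of the table.

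The nuclear pair of processing genes did not move together. DROSHA, on the minus strand of chromosome 5 (31400497 to 31532196), had 6.50, 6.35 and 6.38 FPKM in CTR and 8.19, 7.94 and 7.49 FPKM in miR-8485. Every miR-8485 library was above every CTR library, and the mean went from 6.41 ± 0.0784 to 7.87 ± 0.356 FPKM (SD, n = 3 each), a ratio of 1.23. The change was 0.29 ± 0.05 on the log2 scale (SE, limma adjusted p = 0.0027), and it was 0.18 after rescaling to TPM (adjusted p = 0.0298). DGCR8, on the plus strand of chromosome 22 (20080232 to 20111877), had 5.97, 5.94 and 5.72 FPKM in CTR and 5.58, 5.34 and 5.87 FPKM in miR-8485. The groups overlapped through miR-8485 replicate 3, and the log2 fold change of -0.07 had an interval of -0.21 to 0.07 (adjusted p = 0.334 in limma). Removing the gene length trend turned it to 0.0060, and rescaling to TPM moved it to -0.18 (adjusted p = 0.0550).

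DICER1, on the minus strand of chromosome 14 (95086228 to 95158010), had 4.85, 4.74 and 4.90 FPKM in CTR and 4.19, 4.18 and 4.36 FPKM in miR-8485. The groups were apart, but the fall was the smallest of those called, at -0.18 ± 0.06 on the log2 scale (SE, limma adjusted p = 0.0250) and a ratio of mean FPKM of 0.879. The call was lost with the trend against gene length removed (-0.05, adjusted p = 0.523), with the trend against GC content removed (-0.07, adjusted p = 0.302) and under quantile normalization (-0.15, adjusted p = 0.0535). It was also lost without CTR replicate 1 (adjusted p = 0.0508), CTR replicate 3 (0.0703), miR-8485 replicate 1 (0.0681) or miR-8485 replicate 2 (0.0735), all from limma with a log2 fold change between -0.18 and -0.17.

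In CTR, the order of the 10 genes by FPKM, which is per gene length, began with AGO2 at 8.81, DROSHA at 6.41, DGCR8 at 5.88 and DICER1 at 4.83. TNRC6A at 3.87 and AGO1 at 3.84 could not be told apart, nor could TNRC6C at 2.52 from TNRC6B at 2.33, or TNRC6B from AGO4 at 2.005, and AGO3 was lowest at 1.59. The median of all tested genes in CTR was 6.11 FPKM, and 61.3% of the tested genes were below AGO2 and 12.3% below AGO3. In miR-8485, DROSHA at 7.87 FPKM came first, followed by DGCR8 at 5.60 and AGO2 at 4.92. TNRC6B at 1.51 now stood below AGO4 at 1.70, an order seen on the FPKM scale only, since their libraries overlapped per canonical length. The gene length of the table was larger than the canonical transcript for some of the genes, 7315 against 4506 bases for DGCR8, 7780 against 5416 for DROSHA and 12924 against 8491 for TNRC6A. Per canonical length, AGO2 at 9.56, DGCR8 at 9.54 and DROSHA at 9.21 could not be told apart in CTR, and in miR-8485 AGO2 at 5.34 came after DROSHA at 11.3, DGCR8 at 9.09 and TNRC6A at 6.37.

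The genes differed in how many copies of the seed match their longest annotated 3′ UTR held. AGO2 held 15 copies in 11888 bases (140520156 to 140532043), TNRC6B 13 in 12567 bases (40323242 to 40335808) and AGO3 7 in 16755 bases (36055746 to 36072500), counting overlapping copies. These were also the genes with the largest falls. TNRC6C held 6 copies in 3977 bases (78104846 to 78108822), which at 1.51 per 1000 bases was the highest density after that of DROSHA (2.13), and its log2 fold change of -0.15 was not past the threshold. AGO1 held 2 copies in 10925 bases (35919608 to 35930532), DROSHA 2 in 938 bases (31400494 to 31401431) and TNRC6A 1 in 7834 bases, while AGO4, DICER1 and DGCR8 held none. TNRC6A had no copy in the 3′ UTR of its canonical transcript, and the other 9 counts were the same there. The genes without a copy had log2 fold changes of -0.22 (AGO4), -0.18 (DICER1) and -0.07 (DGCR8), and DICER1, one of these, was downregulated. Copies and changes lined up less well in the other pathway genes described below. LSM14A with 19 copies, HSPA4 with 8 and EIF4E2 with 15 were downregulated, at -0.51, -0.33 and -0.28. PARN with 13 copies was at -0.02 and WTIP with 19 at 0.34, neither past the threshold. PATL1 and STIP1 held 0 copies and were downregulated, at -1.30 and -0.61.

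As a background, 31.4% of the 10676 tested genes with an annotated 3′ UTR held at least 1 copy and 3.31% held at least 7. The 353 genes with at least 7 copies had a median log2 fold change of -0.40, and 62% of them were downregulated. For the 544 genes with at least 5 copies the median was -0.35, with 59.4% downregulated. For the 178 genes with at least 13 copies, which are part of the 353, it was -0.37, with 58.4% downregulated. For the 2808 genes with 1 to 4 copies the median was -0.11, with 40.2% downregulated, and for the 7324 genes without a copy it was 0.02, with 29.2% downregulated. The median 3′ UTR measured 4093 bases in genes with at least 7 copies and 1356 bases in genes without. The 3′ UTRs of AGO2, TNRC6B and AGO3 were thus longer than the median even for genes with many copies, and their density was 1.26, 1.03 and 0.418 copies per 1000 bases. With canonical 3′ UTRs in place of the longest, the median log2 fold change was -0.36, -0.39 and -0.40 for at least 5, 7 and 13 copies. Whether the fall was larger at the highest counts thus depended on the 3′ UTR used. A match is a run of letters, not a measured binding site, and which 3′ UTR ends the cells used was not measured.

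**Figure D4:**
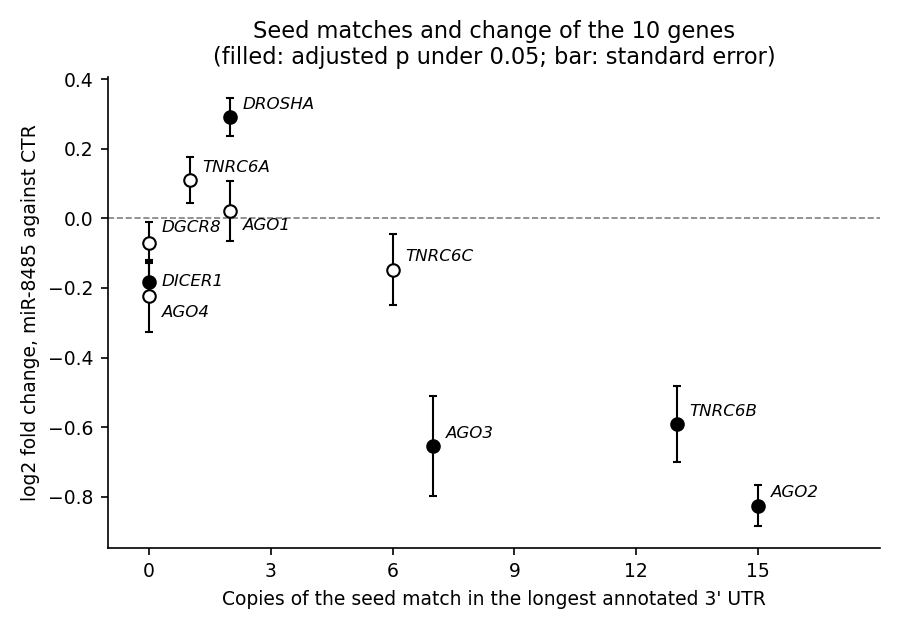
Copies of the seed match in the longest annotated 3′ UTR (horizontal axis) and log2 fold change of miR-8485 against CTR (vertical axis) of the 10 genes, with the standard error as a bar. Filled points had an adjusted p under 0.05. The genes with 7, 13 and 15 copies lay at -0.65, -0.59 and -0.83, TNRC6C with 6 copies lay at -0.15 and was not past the threshold, and those with at most 2 copies lay between -0.22 and 0.29.

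The other genes of the pathway were read from 6 lists by role, with 62 genes, of which 55 were tested. Of these, 7 were upregulated (12.7%) and 22 downregulated (40%), and their median log2 fold change was -0.10. Over all tested genes these values were 29.1%, 30.5% and -0.0041, and the counts of the single lists that follow are to be read beside them. The number upregulated depended on the scaling, with 4 after rescaling to TPM and 13 with the gene length trend removed. It was 11 when voom was run on whole fragments recovered from the table, and 8 when that fit took all genes with at least 10 fragments. The number downregulated ranged from 18 to 29, the latter after rescaling to TPM. That rescaling also moved the background, to 2614 genes up and 4723 down of all tested genes, against 3593 and 3769 in the main fit. The 4 PIWI genes, the germline branch of the Argonaute family, reached at most 0.21 FPKM and were not tested.

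In the list of nuclear processing and export, 2 of 8 genes were upregulated and 4 downregulated. XPO5, which carries the cut hairpin out of the nucleus, rose like DROSHA, from 12.1 ± 1.07 to 16.3 ± 0.261 FPKM (SD, n = 3 each), with a log2 fold change of 0.43 (adjusted p = 0.0013, limma with Benjamini-Hochberg adjustment). SRRT, a partner of the nuclear cap-binding complex in this pathway, rose with a log2 fold change of 0.20 (adjusted p = 0.0088). The cap-binding subunits NCBP2 and NCBP1 fell by 0.36 and 0.22 on the log2 scale, and SRSF3, a splicing factor that helps the nuclear nuclease to find its hairpins, fell by 0.20.

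In the list of DICER1 partners and chaperones that load Argonautes, 1 of 12 genes was upregulated and 6 downregulated. TARBP2 and PRKRA, the RNA-binding partners of DICER1, were not past the threshold, with log2 fold changes of -0.0038 (interval -0.21 to 0.20) and 0.12 (interval -0.02 to 0.26). STIP1, which hands clients from HSP70 to HSP90, fell most, from 99.2 ± 5.06 to 64.9 ± 0.504 FPKM (SD, n = 3 each) with a log2 fold change of -0.61. HSPA4 and HSP90AA1 fell by 0.33 and 0.27, where HSP90AA1 has close pseudogene copies to which its fragments could have been assigned. AHSA1, an activator of HSP90, rose with a log2 fold change of 0.21 (adjusted p = 0.0043 in limma).

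Genes for the control of microRNA precursors, ends and turnover made up a list of 11, of which 8 were tested and 2 were downregulated. These were ZC3H12A, an endonuclease, with a log2 fold change of -0.54 (adjusted p = 0.0138 in limma), and ZSWIM8, which takes part in the turnover of Argonautes bound to certain targets, with -0.30 (adjusted p = 0.0135). LIN28A, LIN28B and TRIM71 lay below the filter.

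Among partners of TNRC6 and repressors that act after it, 2 of 12 genes were upregulated and 5 downregulated. PATL1, a scaffold of mRNA decapping, had the largest fall of all lists, from 13.5 ± 1.22 to 5.40 ± 0.195 FPKM (SD, n = 3 each), which was -1.30 on the log2 scale (adjusted p = 1.1e-05 in limma). LSM14A, a component of processing bodies, fell by 0.51, and CNOT9, the deadenylase subunit that binds TNRC6, fell by 0.48. The poly(A)-binding protein genes PABPC1 and PABPC4 rose with log2 fold changes of 0.50 and 0.47, where PABPC1 has near-identical retrocopies with which fragments could have been split. DDX6, a helicase of the silencing complex, was at 14.1 ± 0.970 and 13.4 ± 0.301 FPKM (SD, n = 3 each), with a log2 fold change of -0.06 and an interval of -0.20 to 0.08.

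Among Argonaute-binding proteins, 2 of 15 genes were upregulated and 5 downregulated. The LIM-domain genes LIMD1 and AJUBA, whose proteins can link Argonautes to the mRNA cap, moved in opposite directions. LIMD1 went from 3.63 ± 0.12 to 1.62 ± 0.179 FPKM (SD, n = 3 each), a change of -1.12 on the log2 scale (limma adjusted p = 7.5e-05). AJUBA went from 9.23 ± 0.638 to 17.5 ± 0.468 FPKM (SD, n = 3 each), a change of 0.91 (limma adjusted p = 2.0e-05). WTIP, of the same list, was higher in every miR-8485 library but not past the threshold (0.34, limma adjusted p = 0.052). IPO8, an import receptor that binds Argonautes, fell by 0.58 on the log2 scale, and TSN, a subunit of a nuclease that clears cut strands from Argonaute, fell by 0.46. MOV10, a helicase found with Argonautes, rose with a log2 fold change of 0.22 (adjusted p = 0.0114).

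**Figure D5:**
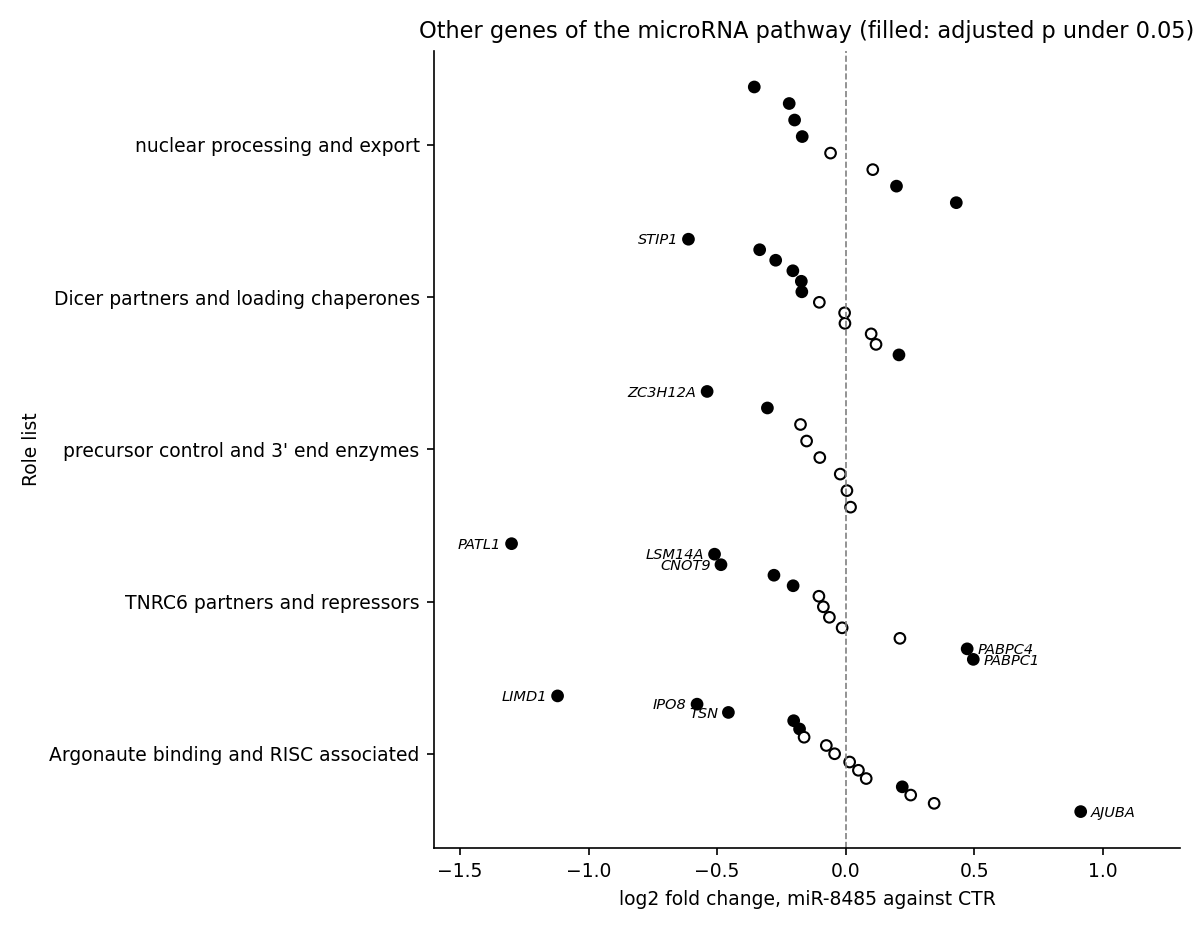
Log2 fold change of miR-8485 against CTR (horizontal axis) of the 55 tested genes in 5 role lists of the microRNA pathway (vertical axis), with filled points for an adjusted p under 0.05. PATL1 and LIMD1 lay below -1 and AJUBA at 0.91.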

How the data were processed

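RNA-seq libraries were grouped by the sample labels, which covered every column of values. The authors trimmed reads with fastp 0.23.1, mapped them to hg38 with HISAT2 2.0.5 and counted fragments per gene with featureCounts 1.5.0-p3. Their own tests were not used. The deposited values used here were FPKM. In every library 100% of the values above 0 were whole multiples (within 0.05) of 1 fragment, so fragments were recovered.

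Genes averaging 1 FPKM or more were fitted on log2(FPKM + 0.1) by limma 3.58.1 (R 4.3.3) with its variance trend. Tests were two-sided, p-values were adjusted by Benjamini-Hochberg over all fitted genes, and calls needed an adjusted p under 0.05. The log2 scale understates changes of genes near 0.1 FPKM. Shares were compared with exact permutation tests (Python 3.11.15, scipy 1.17.1). The fit was checked on simulated libraries in which few genes changed, so the check does not cover data where most genes move. The chi-square per gene was 2.89 to 12.6 for pairs of libraries within a group, so all were counted separately. 3′ UTRs came from GENCODE release 44, the longest per gene, after the stop codon. Alternatives were pseudocounts of 1 and 0.01, no filter, a filter at 5 FPKM, scaling by median-of-ratios, quantiles or TPM, removal of trends against gene length and GC content (known for 12298 genes), no variance trend, a replicate block, voom, and each library left out. The canonical transcript length was added after seeing the data. All 10 members were named. Of the pathway lists, XPO5, TARBP2, PRKRA and DDX6 were named, with up to 3 genes per list and direction that passed the threshold without overlap between the groups. EIF4E2, PARN and WTIP were named as well, for their copies of the seed match. The members and lists were chosen with earlier results of these data known.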

Additional observations from a re-analysis of the deposited data

How the results depend on the processing

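The directions of AGO2, AGO3, TNRC6B and DROSHA and their side of the threshold held in every alternative that tested them. Their sizes varied more, with AGO2 from -0.94 to -0.67, AGO3 from -0.76 to -0.39, TNRC6B from -0.70 to -0.41 and DROSHA from 0.18 to 0.38. With the gene length trend removed, 2 of the 10 genes were upregulated, with TNRC6A at 0.25 called as well, DICER1 was at -0.0458 and no longer called, and DGCR8 turned to 0.0060. DICER1 was not called with the GC trend removed (-0.0691) or under quantile normalization (-0.15), and ranged from -0.20 to -0.17 when single libraries were dropped. Rescaling to TPM called AGO4 (-0.33), turned AGO1 to -0.0906 and TNRC6A to -0.0027, and left 4 upregulated pathway genes, against 13 with the length trend removed and 11 in voom on the same genes. AGO4 was also called without a variance trend (-0.22). AGO1 ranged from -0.0350 to 0.0775 and the TNRC6C share from -1.35 to 0.0628 percentage points when single libraries were dropped. Raising the filter to 5 FPKM left AGO2, DROSHA and DGCR8 to be tested, with 1 downregulated, and 2303 genes up and 2417 down in all against 3593 and 3769. The canonical 3′ UTR of TNRC6A held 0 copies. Same-numbered replicates did not deviate together (correlations of 0.0668, 0.0335 and -0.0640 over the tested genes), so the numbers were not read as a pairing. A fit with the replicate block changed no call of the 10 genes, with AGO2 at -0.83 and DICER1 at an adjusted p of 0.0474 in limma, and gave 3634 genes up and 3754 down in all. The cause of these changes was not tested. AGO4 had the fewest fragments of the 10 genes, 216 to 282 per library, and AGO3 had the largest standard error (0.14).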

Other observations

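Beside DICER1 and TNRC6C lie antisense genes that were higher in miR-8485, a pair chosen after their values were seen. DICER1-AS1, which overlaps the start of DICER1 by 366 bases on the other strand, had 0.671, 0.416 and 0.445 FPKM in CTR and 1.63, 1.57 and 1.33 FPKM in miR-8485. It passed the filter of 1 FPKM only through miR-8485, where it is high, so no test is given for it. TNRC6C-AS1, which overlaps the end of TNRC6C by 1438 bases, had 2.13, 2.02 and 1.61 FPKM in CTR and 3.81, 2.65 and 3.23 FPKM in miR-8485, which was 0.72 ± 0.16 on the log2 scale (SE, limma adjusted p = 0.0058). Of 19 listed genes that overlap any of the 10 genes, these and TRMT2A, at the end of DGCR8, reached 1 FPKM in any library. Without knowledge of strand in the counting, fragments in the shared bases cannot be told apart.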
